A study of Rattus norvegicus with 97 samples.

Results

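Among the arrays of the alcohol-preferring P rats and their non-preferring NP counterparts, the signal of striatal spiny neuron genes varied from animal to animal, and 18 of the 97 arrays of the series were ranked by it. The P and NP lines were bred for high and for low alcohol consumption, and every sample is labelled as shell of the nucleus accumbens, which belongs to the ventral striatum. Each array was made from RNA of 1 rat, with 10 P and 10 NP animals, and the arrays P 9 and NP 9 were left out of the ranking. The other arrays, 77 in all, came from 4 further line pairs bred the same way (AA/ANA, sP/sNP, HAD1/LAD1 and HAD2/LAD2). Sex, age and alcohol exposure are not given in the labels used here. The arrays were chosen by an index, which is the mean log2 signal of 6 spiny neuron genes (Drd1, Drd2, Adora2a, Ptpn5, Bcl11b and Meis2) minus the mean of 2 genes of septum and pallidum (Zic1 and Zic4), with the brightest probe set of each gene. Within P and within NP the 3 arrays with the highest and the 3 with the lowest index were taken. The resulting 6 high arrays were compared with the 6 low arrays, with the line as a covariate, and 6 middle arrays entered neither side.

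Most neurons of the striatum are spiny projection neurons, which use GABA and carry dopamine receptors of the D1 or the D2 type. The shell of the nucleus accumbens borders the ventral pallidum, the septum and the islands of Calleja, and basal forebrain cholinergic neurons lie beside it. Pallidal and septal neurons fire fast, many of their axons are myelinated, and genes such as Zic1 and Zic4 mark cells of these regions. In a bulk sample fewer cells of a type and less RNA per cell cannot be told apart.

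The low end was reached in both lines. The index was 1.33 on P 5, 3.24 on P 10 and 3.55 on P 6, and 3.12 on NP 6, 3.40 on NP 5 and 3.61 on NP 8. The high arrays lay close together, at 5.72, 5.77 and 5.97 on P 8, P 1 and P 3 and at 5.66, 5.68 and 5.76 on NP 10, NP 2 and NP 1. The low set was thus spread over a wider range than the high set, and P 5 stood apart from the other 5 low arrays. Just outside the chosen sets were P 2 with 5.71 and P 4 with 4.38, and NP 4 with 5.29 and NP 3 with 3.89. The division between P 8 and P 2 fell within a nearly continuous run of values. These values chose the arrays, so they are given without a test.

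**Figure D1:**
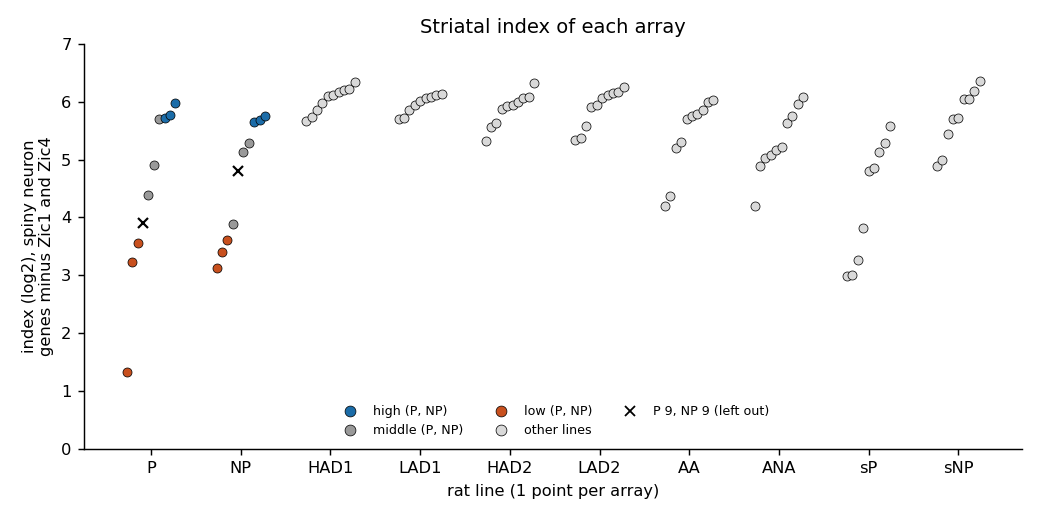
Index of each of the 97 arrays (y axis, log2), by rat line (x axis), with 1 point per array in order of its value. High P and NP arrays are blue, low ones orange and middle ones grey, crosses mark P 9 and NP 9, and the array of lowest index in the series is P 5 at 1.33.

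The genes of the index show what the ranking used. The mean of the 6 spiny neuron genes ran from 9.77 to 11.58 (median 11.32) in the low arrays and from 12.55 to 12.96 (median 12.83) in the high arrays. The mean of Zic1 and Zic4 ran from 7.74 to 8.44 in the low arrays and from 6.89 to 7.15 in the high arrays. The adenosine receptor gene Adora2a, of D2-type neurons, had the largest step, with means of 10.08 and 12.61. Drd1 had means of 11.49 and 13.56 and Drd2 of 10.07 and 11.95. The spread of the index was therefore mostly on the spiny neuron side. The 13 probe sets of these 8 genes were left out of every count of calls or overlap that follows. They were not left out of the promoter counts.

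The index of the P arrays overlapped that of the NP arrays. It averaged 4.51 ± 1.56 (SD, n = 9) in P and 4.61 ± 1.09 (SD, n = 9) in NP, a difference of -0.104 that is given without a test, since the index chose the arrays. In the other lines the index lay between 2.99 and 6.36, with line means from 4.31 in sP to 6.04 in HAD1. Only sP, with an SD of 1.03, had a spread like that of P and NP, and SDs in the other 7 lines were between 0.16 and 0.66. Of the 77 arrays, 3 had an index no higher than the highest low array of P and NP, and all 3 were sP.

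RNA quality and overall brightness overlapped between the high and low arrays. The Affymetrix Gapdh 3' minus 5' value, which rises as RNA shortens, ran from 0.0946 to 0.148 in the low arrays and from 0.105 to 0.136 in the high arrays. The high minus low difference was -0.0161 (exact permutation test within lines, two-sided, p = 0.11, smallest possible 0.005). The array medians differed by 0.0027 (exact permutation test within lines, two-sided, p = 0.775). In the other lines the Gapdh value lay between 2.30 and 5.38 in HAD1, LAD1, HAD2 and LAD2 and between -0.060 and 0.80 in AA, ANA, sP and sNP. The number of arrays limits the precision of each difference.

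Expression differed widely between the ends of the ranking. Of 31029 probe sets, 13569 (43.7%) were called at an adjusted p under 0.05 by limma, with 6602 (21.3%) higher in the high arrays and 6967 (22.5%) lower. Differences over 4-fold were found for 60 higher and 83 lower probe sets, and 11 of the lower ones exceeded 8-fold. The median absolute difference over all probe sets was 0.16 log2. After each line was centred on its own mean, every high array lay above every low array for 4500 probe sets (14.5%) and below for 4715 (15.2%). Because the sets were chosen on gene levels of these same arrays, the counts describe how far other genes moved with the index. Without P 5 there were 12969 calls. Leaving out other single arrays gave 12499 to 13821.

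The 77 arrays of the other lines, which had no part in choosing the sets, gave a separate reading. There the slope of each probe set on the index, with the line as a factor, was called for 11117 probe sets (35.8%), of which 5282 (17.02%) rose with the index and 5835 (18.8%) fell. Both readings called 9470 probe sets, of which 9469 had the same sign and 1 the opposite sign. These shared calls of 1 sign were 69.8% of the calls from the P and NP arrays and 85.2% of those from the other lines. Of the probe sets over 4-fold apart in P and NP, 59 of the 60 higher and all 83 of the lower ones were called with the same sign in the other lines. With the Gapdh value as a covariate 11634 slopes were called, and without the sP and sNP arrays 8240. An earlier analysis of these data had found 6 arrays of the other lines (HAD1 28, LAD1 37, AA 19, ANA 20, sP 4 and sNP 4) to depart from the line on their label. This was not examined again, and without these 6 arrays 11071 slopes were called.

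**Figure D2:**
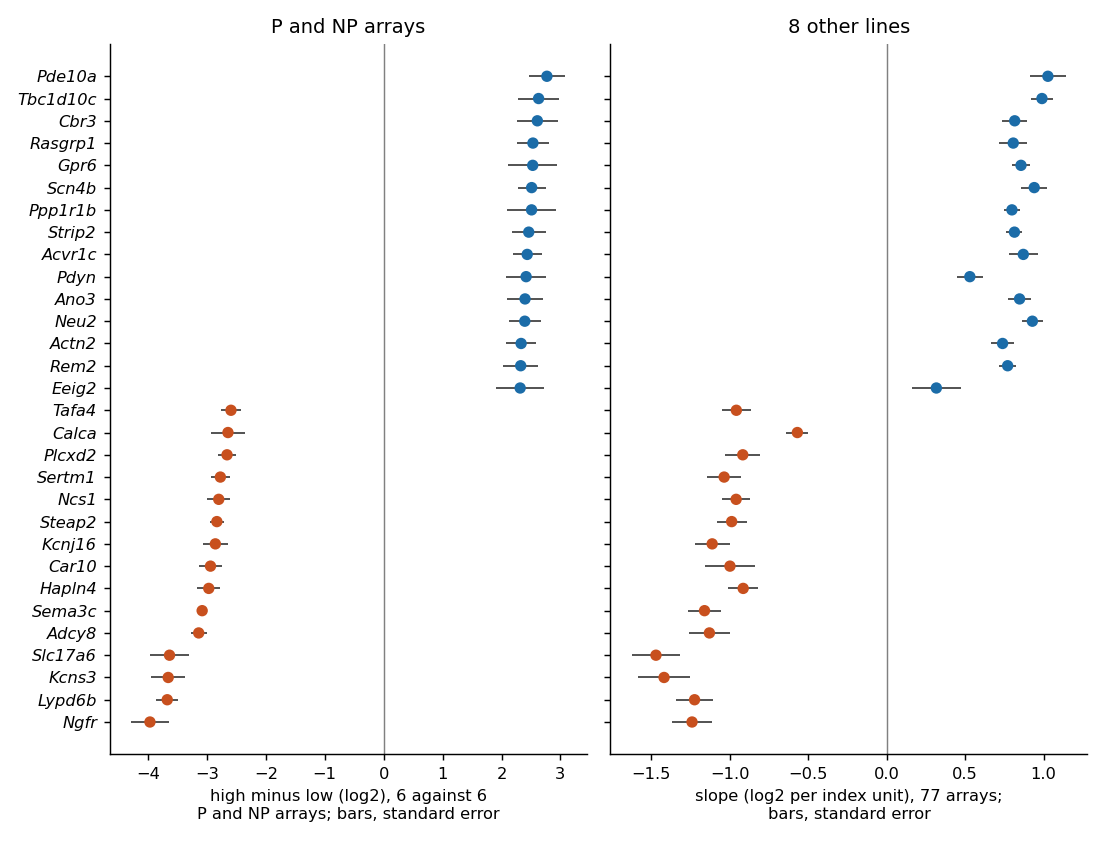
The 15 genes with the largest positive and the 15 with the largest negative differences. The left panel gives the high minus low difference in P and NP (log2, 6 arrays against 6), the right panel the slope in 77 arrays of other lines (log2 per unit of index), and bars are standard errors. The slope of Eeig2 was the 1 of 30 that was not called.

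Genes were named by size of difference only where high and low arrays did not overlap after each line was centred. Of the 15 genes with the largest positive differences, 7 were on the list of spiny neuron genes (Pde10a, Ppp1r1b, Gpr6, Scn4b, Actn2, Pdyn and Strip2). Pde10a, a phosphodiesterase that breaks down cAMP and cGMP in these neurons, ran from 7.84 to 9.42 (median 8.47) in the low arrays and from 10.47 to 11.99 (median 11.54) in the high arrays. Pde10a was 6.82-fold higher in the high arrays (2.77 ± 0.31, adjusted p = 1.42e-05, difference in log2 ± SE). Its slope in the other lines was 1.03 ± 0.11 per unit of index. Ppp1r1b encodes DARPP-32, the phosphatase inhibitor through which dopamine acts in spiny neurons. It ran from 8.91 to 11.94 (median 11.50) in the low arrays and from 13.26 to 13.90 (median 13.75) in the high arrays, and the lowest of these was P 5. The high arrays were 5.7-fold higher (2.51 ± 0.41, adjusted p = 0.000292). Gpr6, an orphan receptor of D2-type neurons, ran from 6.47 to 9.71 (median 9.11) in the low arrays and from 10.96 to 11.58 (median 11.41) in the high arrays (2.53 ± 0.41, adjusted p = 0.000267). Here too P 5 was the lowest array. Scn4b, the beta 4 subunit of sodium channels, ran from 9.75 to 10.90 (median 10.37) in the low arrays and from 11.84 to 13.29 (median 13.04) in the high arrays (2.51 ± 0.24, adjusted p = 4.76e-06). The lowest of the high arrays was NP 10, which was still above every low array. Actn2, an actinin of dendritic spines, was 5.04-fold higher (2.33 ± 0.25), and Pdyn, the precursor of dynorphin, 5.34-fold (2.42 ± 0.33). Rasgrp1, an exchange factor that activates Ras in response to calcium and diacylglycerol, was 5.79-fold higher (2.53 ± 0.27).

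Strip2 and the rest of the 15 had differences of a like size. Tbc1d10c, which encodes a GTPase-activating protein that also inhibits calcineurin, ran from 5.50 to 8.21 (median 7.22) in the low arrays and from 9.10 to 10.03 (median 9.89) in the high arrays (2.63 ± 0.34, adjusted p = 4.96e-05). The carbonyl reductase gene Cbr3 (2.61 ± 0.34), Strip2, of a striatin-interacting protein (2.46 ± 0.29), and Acvr1c, of an activin receptor (2.44 ± 0.24), were higher as well. So were Ano3, of the anoctamin family (2.40 ± 0.31), the sialidase gene Neu2 (2.40 ± 0.27) and Rem2, of a GTPase that acts on calcium channels (2.33 ± 0.30). Each of these 7 had a called positive slope in the other lines, from 0.77 in Rem2 to 0.99 in Tbc1d10c. Eeig2 was the exception among the 15. Its difference of 2.32 ± 0.41 was called (adjusted p = 0.000511), but its values in the 2 sets overlapped before each line was centred. Its slope in the other lines was 0.32 ± 0.16 (adjusted p = 0.111).

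The steepest differences lay on the other side. Ngfr, the p75 neurotrophin receptor of basal forebrain cholinergic neurons, ran from 8.70 to 10.59 (median 9.45) in the low arrays and from 4.96 to 6.30 (median 5.64) in the high arrays. Low and high arrays were thus far apart, and Ngfr was 15.6-fold lower in the high arrays (-3.97 ± 0.32, adjusted p = 1.52e-06). Slc17a6, the vesicular glutamate transporter VGLUT2 of subcortical glutamatergic neurons, ran from 9.54 to 11.70 (median 10.15) in the low arrays and from 6.16 to 7.50 (median 6.74) in the high arrays. It was 12.4-fold lower (-3.63 ± 0.33, adjusted p = 3.67e-06), with a slope of -1.47 ± 0.15 in the other lines. Lypd6b, of the Ly6 family that acts on nicotinic receptors, was 12.8-fold lower (-3.67 ± 0.19). Kcns3, a modifying subunit of Kv2 potassium channels, was 12.6-fold lower (-3.66 ± 0.29). Adcy8, a calcium-stimulated adenylyl cyclase, ran from 8.62 to 9.29 (median 8.78) in the low arrays and from 5.33 to 6.04 (median 5.70) in the high arrays, and P 5 was its highest array (-3.14 ± 0.14, adjusted p = 5.72e-08). Sema3c, a secreted guidance protein, had the smallest adjusted p of all (-3.08 ± 0.086, adjusted p = 1.85e-09). Its low arrays lay between 11.80 and 12.02 and its high arrays between 8.45 and 9.24. P 5 did not stand apart from the other low arrays for this gene.

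Of the 15 lower genes, 2 (Ngfr and Slc17a6) were on the pallidal, cholinergic or glutamatergic lists. Hapln4, a link protein of perineuronal nets, was 7.82-fold lower in the high arrays (-2.97 ± 0.19, 2 of 3 probe sets in the same direction). Kcnj16, an inward rectifier subunit (-2.86 ± 0.22), Car10, a carbonic anhydrase-related protein (-2.94 ± 0.19), and the metalloreductase gene Steap2 (-2.83 ± 0.12) were lower too. Calca, which encodes calcitonin and CGRP, ran from 5.72 to 8.09 (median 7.37) in the low arrays and from 4.40 to 4.72 (median 4.59) in the high arrays (-2.64 ± 0.28, adjusted p = 1.15e-05). The secreted protein gene Tafa4 (-2.59 ± 0.18), Sertm1 (-2.77 ± 0.16) and Plcxd2 (-2.66 ± 0.15) completed the set with the calcium sensor gene Ncs1 (-2.80 ± 0.20). For Ncs1 only 1 of 4 probe sets had this direction, and its value belongs to that probe set alone. All 15 lower genes had called negative slopes in the other lines. Their lack of overlap between high and low arrays was a condition of naming and is no separate result.

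**Figure D3:**
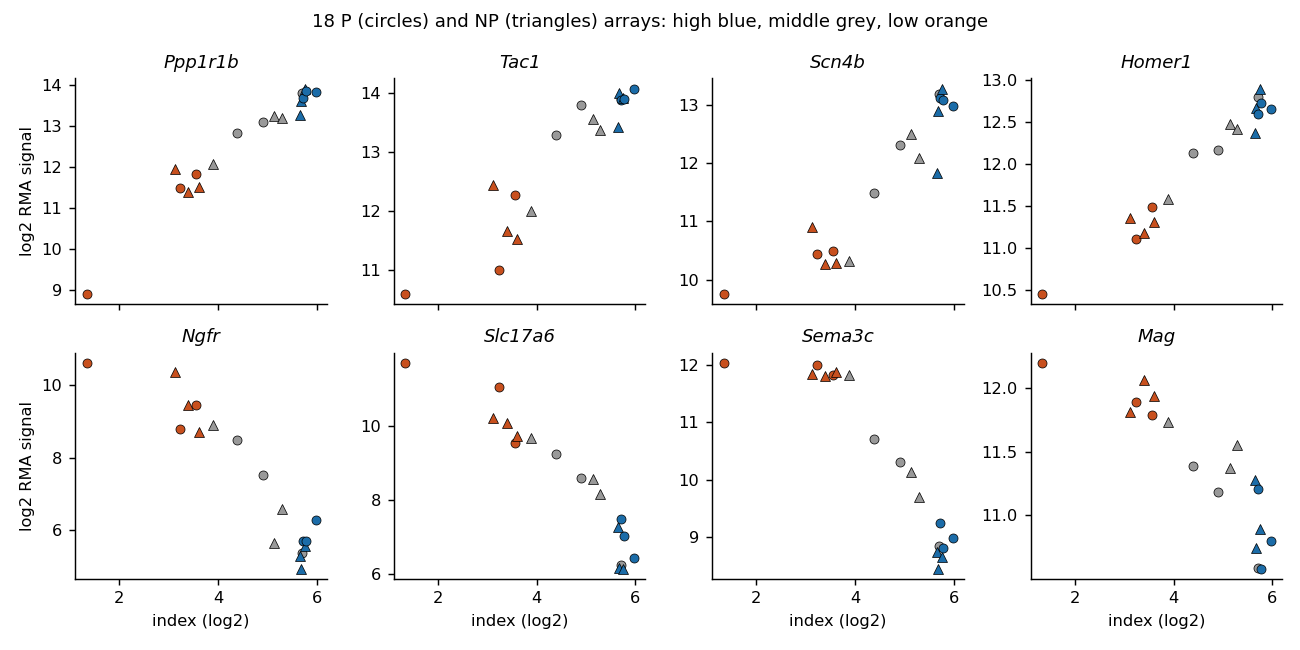
Log2 RMA signal (y axis) against the index (x axis, log2) in the 18 ranked arrays for 8 genes, circles P and triangles NP. Blue points are high arrays, orange low and grey middle, and the middle arrays lie between the sets for most genes. Ppp1r1b shows P 5 far below the other low arrays, whereas Sema3c does not.

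The following gene lists are counted with the brightest probe set of each gene. Some genes stand on several lists, so the counts are not independent. The dopamine, peptide, potassium channel, sodium channel, CaM kinase, transcription factor and retinoid lists share members with the spiny neuron list. Over 14209 genes with 1 probe set each, 21.7% were called higher and 27.4% lower. Up to 4 genes of each list, those with the smallest adjusted p, were named by rule, and further members were named after their values were seen.

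Spiny neuron genes were nearly all higher in the high arrays. Of 35 measured genes of a list that shares no member with the index, 33 were called higher and 0 lower, against 21.7% higher and 27.4% lower over 14209 genes with 1 probe set each. The median difference was 1.81 log2, where that of all genes was -0.036. Ebf1, a transcription factor of D1-type neurons (-0.19 ± 0.17, adjusted p = 0.405), and Ido1 (0.064 ± 0.088, adjusted p = 0.599) were not called. In the other lines the same counts were found, 33 higher and 0 lower. Penk, the precursor of enkephalin in D2-type neurons, had the smallest adjusted p of the list. It ran from 13.13 to 13.68 (median 13.46) in the low arrays and from 14.46 to 14.71 (median 14.65) in the high arrays (1.17 ± 0.086, adjusted p = 9.13e-07). Tac1, the precursor of substance P in D1-type neurons, ran from 10.60 to 12.44 (median 11.59) in the low arrays and from 13.41 to 14.07 (median 13.91) in the high arrays (2.28 ± 0.27, adjusted p = 2.23e-05). Genes of both neuron types were thus higher, and neither Penk nor Tac1 overlapped between the sets. Rasd2, a small G protein of the striatum, (2.04 ± 0.20, adjusted p = 7.15e-06) and Lrrc10b (1.79 ± 0.17, adjusted p = 4.76e-06, 1 of 2 probe sets in this direction) followed. The list's mean level ran from 8.997 to 10.54 in the low arrays and from 11.48 to 11.97 in the high arrays.

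The cAMP pathway of dopamine signalling had 15 of 24 genes higher (62.5%) and 4 lower (16.7%), with a median of 0.73. The shares over all genes were 21.7% and 27.4%. In the other lines 15 of the 24 rose with the index and 1 fell. Of the higher genes, Ppp1r1b, Adcy5, Gnal, Gng7, Pde1b, Pde10a, Rgs9 and Rasd2 are also on the spiny neuron list. Adcy5, the main adenylyl cyclase of spiny neurons, was higher (1.87 ± 0.19, adjusted p = 8.23e-06, 1 of 2 probe sets), as were Pde1b, a calcium-dependent phosphodiesterase (1.81 ± 0.19, adjusted p = 1.05e-05), and Rgs2, a G protein regulator (1.03 ± 0.09, adjusted p = 2.88e-06). Akap5, which anchors protein kinase A at synapses, was 4.04-fold higher (2.01 ± 0.32). The catalytic subunits of protein kinase A differed in sign, with Prkaca lower (-0.48 ± 0.069, adjusted p = 0.000109) and Prkacb higher (0.21 ± 0.045, adjusted p = 0.00188). The dopamine receptor gene Drd5 was lower by a small amount (-0.38 ± 0.077, adjusted p = 0.00133), and its slope of -0.079 in the other lines was not called (adjusted p = 0.0844). Drd5 signals were low, from 4.99 to 5.88 on the ranked arrays, whose medians were all at least 7.938.

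Genes of peptides and their receptors were divided, with 6 of 25 higher (24%) and 10 lower (40%), against 21.7% and 27.4% over all genes. Penk, Tac1 and Pdyn were higher, as was Cartpt, the precursor of the CART peptide (2.10 ± 0.41, adjusted p = 0.000941). The kappa opioid receptor gene Oprk1 was higher (1.18 ± 0.14, adjusted p = 1.84e-05), the mu receptor gene Oprm1 slightly lower (-0.20 ± 0.072, adjusted p = 0.0377) and the delta receptor gene Oprd1 not called (0.061 ± 0.06, adjusted p = 0.449). Oprm1 signals were low, from 5.90 to 6.68 on the ranked arrays, whose medians were all at least 7.938. Pnoc, the precursor of nociceptin, (-1.69 ± 0.17, adjusted p = 7.12e-06) and its receptor gene Oprl1 (-1.07 ± 0.18, adjusted p = 0.000296) were both lower. Tacr3, the neurokinin receptor NK3, ran from 7.96 to 8.90 (median 8.19) in the low arrays and from 5.75 to 6.31 (median 5.86) in the high arrays (-2.40 ± 0.15, adjusted p = 3.55e-07). Gal, of galanin, was 5.02-fold lower (-2.33 ± 0.53, adjusted p = 0.00299) and Crh, of corticotropin-releasing factor, 3.14-fold (-1.65 ± 0.25, adjusted p = 0.000152). Npy, a peptide of striatal interneurons, was not called (0.74 ± 0.32, adjusted p = 0.0757).

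Promoters of 3 genes that moved are given here because they hold the cAMP response element, the site bound by CREB, and belong to genes of both directions. The element was searched as TGACGTCA, which reads the same on both strands, within 250 bases before and 50 after the start of each gene, in RefSeq promoters of the rat build GRCr8. It was found in 525 of 27457 promoters (1.91%). Of genes over 2-fold higher in the high arrays 8 of 314 promoters held it (2.55%), and of genes over 2-fold lower 2 of 298 (0.671%), where 335 of 11733 measured genes did (2.86%). Neither share was above that of measured genes, and a match describes letters only. The index genes, which chose the arrays, were not left out of these promoter counts. The 3 genes were chosen after their values were seen. Gpr6 and Cartpt were higher in the high arrays and Vamp1, a synaptic vesicle protein of fast-spiking neurons, lower (-1.18 ± 0.12, adjusted p = 6.16e-06, 2 of 3 probe sets). The sequences run 5′ to 3′ with the element in capitals, for Gpr6 at chr20:46075202-46075501, minus strand, Cartpt at chr2:32991186-32991485, minus strand and Vamp1 at chr4:159698644-159698943, plus strand.
Gpr6: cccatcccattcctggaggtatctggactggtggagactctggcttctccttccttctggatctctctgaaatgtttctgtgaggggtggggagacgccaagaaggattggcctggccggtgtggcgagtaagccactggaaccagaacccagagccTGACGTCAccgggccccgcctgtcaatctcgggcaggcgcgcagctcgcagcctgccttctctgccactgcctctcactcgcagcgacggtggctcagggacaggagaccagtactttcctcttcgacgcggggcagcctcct
Cartpt: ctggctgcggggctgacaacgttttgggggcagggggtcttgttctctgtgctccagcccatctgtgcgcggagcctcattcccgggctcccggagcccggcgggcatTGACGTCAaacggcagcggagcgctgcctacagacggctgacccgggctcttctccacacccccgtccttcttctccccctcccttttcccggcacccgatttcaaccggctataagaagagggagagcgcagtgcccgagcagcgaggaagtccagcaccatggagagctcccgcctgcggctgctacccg
Vamp1: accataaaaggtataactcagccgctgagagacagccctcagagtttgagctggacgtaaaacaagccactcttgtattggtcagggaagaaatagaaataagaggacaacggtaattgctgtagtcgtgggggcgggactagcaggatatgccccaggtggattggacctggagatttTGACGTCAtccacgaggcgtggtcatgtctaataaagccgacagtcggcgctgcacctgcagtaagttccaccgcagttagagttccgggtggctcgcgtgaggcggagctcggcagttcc

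Glutamate receptor genes were mixed, with 13 of 23 higher (56.5%, against 21.7% over all genes). Another 7 were lower (30.4%, against 27.4%), and the median was 0.36. The AMPA receptor subunit gene Gria3 ran from 11.23 to 11.46 (median 11.38) in the low arrays and from 12.13 to 12.33 (median 12.24) in the high arrays (0.88 ± 0.052, adjusted p = 2.71e-07). The metabotropic receptor genes Grm4 (1.08 ± 0.065, adjusted p = 2.92e-07), Grm3 (0.61 ± 0.066, adjusted p = 1.22e-05) and Grm5 (1.03 ± 0.19, adjusted p = 0.000734) and the kainate receptor subunit gene Grik5 (0.61 ± 0.066, adjusted p = 1.26e-05) were higher. NMDA receptor subunits moved apart, with Grin2a (1.07 ± 0.17) and Grin2b (1.10 ± 0.19) higher and Grin2d (-0.99 ± 0.14) and Grin3a (-0.70 ± 0.12) lower. The kainate receptor subunit gene Grik1 was 2.64-fold lower (-1.40 ± 0.20, adjusted p = 9.36e-05).

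GABA-A receptor subunits were likewise parted, 7 of 19 genes of the GABA list being higher and 7 lower (36.8% each). The shares over all genes were 21.7% and 27.4%. Gabrd, the delta subunit of extrasynaptic receptors, ran from 9.15 to 9.78 (median 9.48) in the low arrays and from 10.51 to 10.83 (median 10.79) in the high arrays (1.25 ± 0.10, adjusted p = 1.57e-06). Gabra4, its partner in striatal neurons, was 3.86-fold higher (1.95 ± 0.25). The beta 2 subunit gene Gabrb2 (-1.05 ± 0.071, adjusted p = 5.61e-07), the GABA-B receptor gene Gabbr2 (-0.97 ± 0.059, adjusted p = 3.25e-07) and Slc6a11, the GABA transporter GAT3 (-1.14 ± 0.13, adjusted p = 1.61e-05), were lower. The synthetic enzymes differed in sign. Gad2 was higher (0.60 ± 0.15, adjusted p = 0.00636), though its slope of 0.032 in the other lines was not called (adjusted p = 0.747), and Gad1 was slightly lower (-0.17 ± 0.043, adjusted p = 0.00641, 1 of 2 probe sets).

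Potassium channel genes moved in both directions, with 14 of 33 higher (42.4%) and 11 lower (33.3%), against 21.7% and 27.4% over all genes. The Kv3 family, which lets neurons fire fast, was lower in the high arrays in the 3 genes of the list that were measured. Kcnc2 ran from 12.14 to 12.74 (median 12.37) in the low arrays and from 9.71 to 10.51 (median 10.03) in the high arrays (-2.32 ± 0.15, adjusted p = 3.75e-07, 6 of 6 probe sets). Kcnc1 was lower by 1.54 ± 0.13 and Kcnc4 by 1.40 ± 0.12 on the log2 scale. The G protein-gated channel gene Kcnj6 was 4.76-fold lower (-2.25 ± 0.23, 4 of 4 probe sets). Kcnj4, an inward rectifier of spiny neurons, was higher (1.74 ± 0.24, adjusted p = 6.98e-05), as were Kcna4 (1.63 ± 0.16), Kcnk2 (1.39 ± 0.11) and Kcnip2, a subunit of A-type channels (1.65 ± 0.21, 2 of 3 probe sets). Kcna1, placed on the pallidal list, was higher instead (0.61 ± 0.079, adjusted p = 4.37e-05).

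Of 24 sodium, calcium and HCN channel genes, 15 were higher (62.5%, against 21.7% over all genes). Another 5 were lower (20.8%, against 27.4%), and the median was 0.48. Scn3b, a beta subunit of sodium channels, ran from 12.25 to 12.44 (median 12.35) in the low arrays and from 12.95 to 13.01 (median 12.98) in the high arrays (0.63 ± 0.041, adjusted p = 4.48e-07). The calcium channel subunit genes Cacna2d1 (1.08 ± 0.073, adjusted p = 5.71e-07) and Cacnb2 (0.73 ± 0.064, adjusted p = 2.92e-06) were higher. Scn1a, the sodium channel of fast-spiking neurons, was lower (-0.90 ± 0.074, adjusted p = 1.83e-06), and so was Cacna1g, a T-type calcium channel (-0.74 ± 0.11).

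Calcium-calmodulin kinases and phosphatases had the next largest share of higher genes after the spiny neuron list, 23 of 28 (82.1%). The median was 0.88, and 2 genes were lower (7.14%), where the shares over all genes were 21.7% and 27.4%. The CaM kinase II genes parted by isoform. Camk2a ran from 10.98 to 12.66 (median 12.47) in the low arrays and from 13.59 to 13.80 (median 13.72) in the high arrays (1.49 ± 0.21, adjusted p = 9.11e-05, 4 of 4 probe sets), and Camk2b was higher as well (0.91 ± 0.078, adjusted p = 2.3e-06). Camk2g (-0.97 ± 0.08, adjusted p = 1.87e-06) and Camk2d (-0.89 ± 0.14, adjusted p = 0.00017) were lower, and they were the 2 lower genes of the list. Camkk2, which activates other CaM kinases, (1.47 ± 0.13) and the phosphatase gene Dusp14 (1.63 ± 0.16) were higher.

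Immediate early genes, which neuronal activity switches on within minutes, were higher in 10 of 18 cases (55.6%) and lower in 3 (16.7%). Over all genes 21.7% were higher and 27.4% lower, and the median of the list was 0.80. Homer1, of a scaffold protein with an activity-induced form, ran from 10.45 to 11.48 (median 11.24) in the low arrays and from 12.36 to 12.89 (median 12.65) in the high arrays (1.50 ± 0.15, adjusted p = 6.38e-06, 5 of 5 probe sets). Egr4 (1.66 ± 0.20, adjusted p = 2.3e-05), Fosb (1.83 ± 0.23, adjusted p = 4.1e-05) and Arc (1.60 ± 0.32, adjusted p = 0.0013) were higher. Jun was lower (-0.82 ± 0.054, adjusted p = 4.62e-07, 3 of 3 probe sets), and so was Nr4a2 (-1.05 ± 0.23, adjusted p = 0.00258). Fos itself was not called (-0.47 ± 0.47, adjusted p = 0.457). Retinoid signalling genes were higher in 7 of 16 (43.8%) and lower in 3 (18.8%), against 21.7% and 27.4% over all genes. Rarb, a retinoic acid receptor of the striatum, (2.07 ± 0.30, adjusted p = 0.000107) and its partner gene Rxrg (1.56 ± 0.18, adjusted p = 1.63e-05) were higher, as were Rdh10, which makes retinal (1.64 ± 0.14, adjusted p = 1.88e-06), Stra6, a retinol carrier at the cell membrane (1.51 ± 0.20, adjusted p = 5.14e-05), and Rbp4 (1.37 ± 0.15, adjusted p = 1.35e-05). Aldh1a1, a retinal dehydrogenase, was lower (-1.26 ± 0.18, adjusted p = 0.000119).

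Transcription factors of the forebrain changed in both directions, 11 of 35 higher (31.4%) and 13 lower (37.1%). Over all genes the shares were 21.7% and 27.4%. Foxp1 (1.82 ± 0.21, adjusted p = 1.72e-05, 5 of 5 probe sets) and Foxp2 (1.24 ± 0.21), both of spiny neurons, were higher, and Lhx2 was higher by 1.81 ± 0.17 (adjusted p = 5.48e-06). Among the lower genes was Tcf7l2, a mediator of Wnt signals that is abundant in thalamus and habenula. It ran from 11.20 to 11.94 (median 11.84) in the low arrays and from 10.01 to 10.36 (median 10.06) in the high arrays (-1.61 ± 0.12, adjusted p = 1.01e-06, 5 of 5 probe sets). Npas1, of pallidal neurons projecting to the striatum, (-1.97 ± 0.20, adjusted p = 8.34e-06), Nkx2-1, of the embryonic zone that gives rise to the pallidum, (-1.26 ± 0.18, adjusted p = 7.87e-05) and Nr2f2 (-1.54 ± 0.17, adjusted p = 1.53e-05) were lower.

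**Figure D4:**
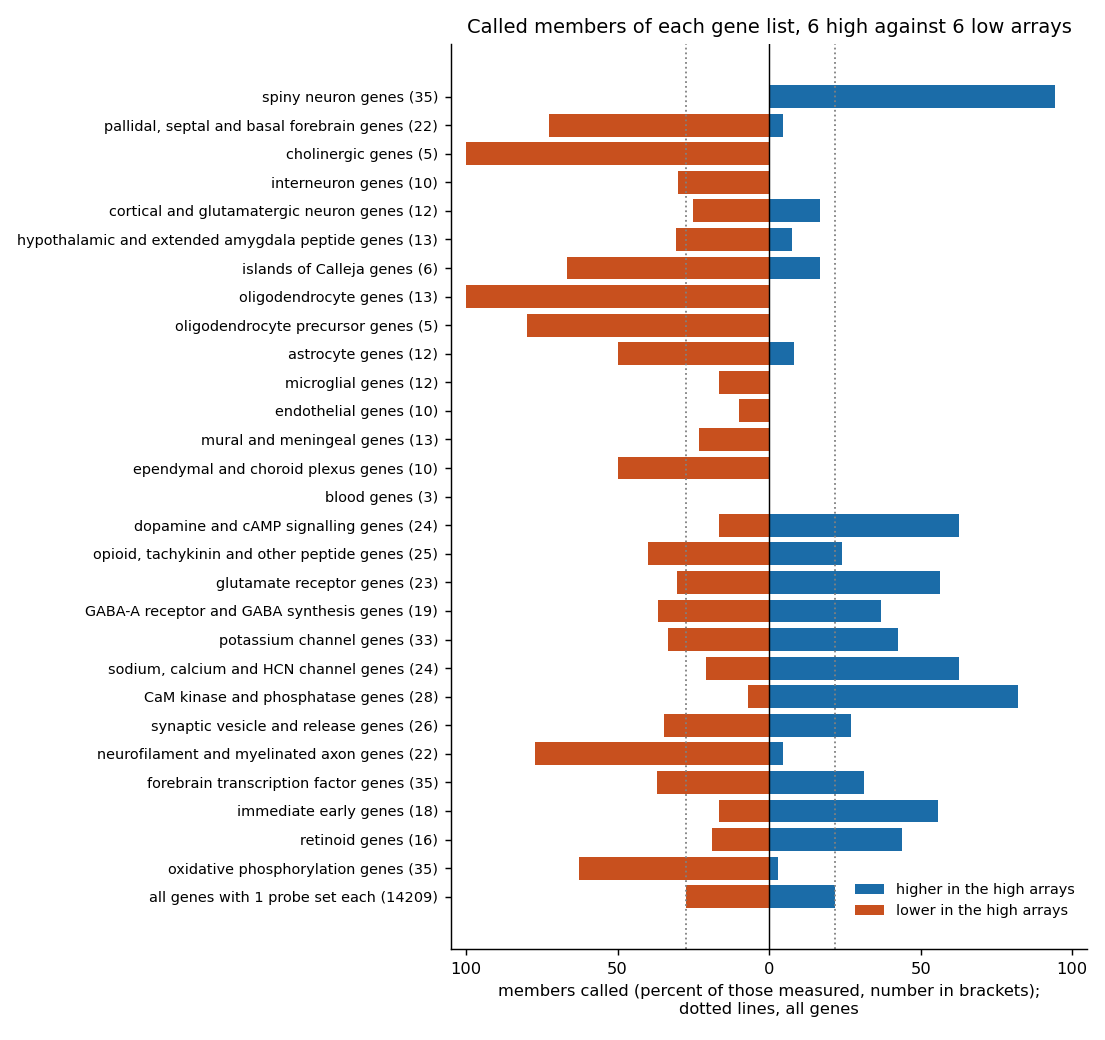
Percent of measured genes called higher (blue) or lower (orange) in the high arrays, for 28 gene lists with the number measured in brackets. Dotted lines are the shares over all 14209 genes, 21.7% higher and 27.4% lower.

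Genes of pallidum, septum and basal forebrain formed the counterpart of the spiny neuron list. Of 22 measured, 16 were lower in the high arrays (72.7%, against 27.4% over all genes) and 1 higher (4.55%, against 21.7%). The median was -1.29, and the counts were the same in the other lines. Nefh, the heavy neurofilament chain, ran from 12.71 to 13.15 (median 12.89) in the low arrays and from 10.57 to 11.40 (median 10.74) in the high arrays (-2.08 ± 0.12, adjusted p = 1.65e-07). Pvalb, the calcium buffer of fast-spiking neurons, was 4.19-fold lower (-2.07 ± 0.21, adjusted p = 6.66e-06). Elavl2, an RNA-binding protein of neurons (-1.92 ± 0.13, adjusted p = 4.48e-07), Gbx2, a homeobox gene (-1.90 ± 0.22, adjusted p = 2.29e-05), and Trpc4, a cation channel of septal neurons (-1.47 ± 0.15, adjusted p = 7.09e-06), were lower. Zic2, Esr1, Peg10, Syt2 and Trh were not called, with differences from -0.39 in Trh to 0.12 in Syt2. The list joins 3 neighbouring regions, so the arrays at the low end are described here as poor in spiny neuron signal and rich in pallidal, septal and basal forebrain signal, and the word pallidal alone would say more than these genes do.

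Cholinergic genes were all lower in the high arrays, 5 of 5, where 27.4% of all genes were lower. Chat, the enzyme that makes acetylcholine, ran from 8.99 to 10.30 (median 9.54) in the low arrays and from 8.17 to 8.64 (median 8.37) in the high arrays (-1.24 ± 0.19, adjusted p = 0.000152). The choline transporter gene Slc5a7 (-0.90 ± 0.15, adjusted p = 0.000314), the vesicular transporter gene Slc18a3 (-1.17 ± 0.20, adjusted p = 0.000338) and Slc10a4 (-1.07 ± 0.089, adjusted p = 1.9e-06) moved by less than Ngfr. The striatum holds cholinergic interneurons of its own, which express Chat but little Ngfr in the adult.

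Lists for other neighbouring cell types had between 25% (cortical and glutamatergic genes) and 66.7% (islands of Calleja) of their members lower in the high arrays, against 27.4% over all genes. Of 12 cortical and glutamatergic genes 3 were lower, among them Slc17a6 and Neurod1 (-0.69 ± 0.15, adjusted p = 0.0026), and Lamp5 (1.69 ± 0.34, adjusted p = 0.00133) and Fezf2 (0.62 ± 0.15, adjusted p = 0.00406) were higher. Neurod1 signals were low, from 4.25 to 5.79 on the ranked arrays. The cortical transporter gene Slc17a7 was not called (-0.055 ± 0.073, adjusted p = 0.585). Of 13 hypothalamic and extended amygdala peptide genes 4 were lower and Cartpt higher. Pmch, of melanin-concentrating hormone, was lower (-1.36 ± 0.097, adjusted p = 7.38e-07), and so was Avp, of vasopressin (-0.44 ± 0.083, adjusted p = 0.000793), whose slope of -0.044 in the other lines was not called (adjusted p = 0.478). Of 6 genes of the islands of Calleja 4 were lower here and 4 in the other lines, Prox1 (-0.71 ± 0.10, adjusted p = 0.000113) and Dlx1 (-1.14 ± 0.25, adjusted p = 0.00268) by the most, and Sox11 was higher (0.49 ± 0.15, adjusted p = 0.0183). Their receptor gene Drd3 was not called (0.21 ± 0.089, adjusted p = 0.0711). Its signals were low, from 4.43 to 5.01 on the ranked arrays, whose medians were all at least 7.938. Of 10 interneuron genes 3 were lower, namely Vip (-1.76 ± 0.28, adjusted p = 0.000224), Reln (-0.89 ± 0.27, adjusted p = 0.0159) and Kit (-0.36 ± 0.075, adjusted p = 0.00161), and Sst was not called (0.26 ± 0.18, adjusted p = 0.269).

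Oligodendrocyte genes were lower in the high arrays without exception, 13 of 13, where 27.4% of all genes were lower. The median was -0.77, and 13 of 13 fell with the index in the other lines. Mog, a surface protein of myelin, ran from 11.91 to 12.30 (median 12.09) in the low arrays and from 10.95 to 11.43 (median 11.05) in the high arrays (-0.93 ± 0.09, adjusted p = 5.6e-06). Mag (-1.03 ± 0.12, adjusted p = 1.96e-05), Cnp (-0.77 ± 0.089, adjusted p = 1.91e-05) and Opalin (-0.85 ± 0.10, adjusted p = 2.44e-05), further myelin genes, were lower, and Mbp, of myelin basic protein, had the smallest difference of the list (-0.31 ± 0.057, adjusted p = 0.00075). Precursor genes were lower in 4 of 5, Olig1 by the most (-0.77 ± 0.072, adjusted p = 4.51e-06). Neurofilament and axon genes accompanied them, with 17 of 22 lower (77.3%) and 1 higher (4.55%, against 21.7% over all genes), and a median of -0.71. Stmn2, a regulator of microtubules, ran from 13.64 to 13.86 (median 13.68) in the low arrays and from 12.58 to 12.75 (median 12.66) in the high arrays (-1.04 ± 0.05, adjusted p = 9.09e-08). Prph, of the intermediate filament peripherin, was 5.76-fold lower (-2.53 ± 0.13, adjusted p = 1.27e-07), and Sncb, of beta-synuclein, 2.58-fold (-1.37 ± 0.071, adjusted p = 1.21e-07).

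Astrocyte genes moved individually, 6 of 12 lower (50%, against 27.4% over all genes) and 1 higher (8.33%, against 21.7%). Agt, of angiotensinogen, ran from 12.19 to 12.88 (median 12.37) in the low arrays and from 9.53 to 10.11 (median 9.83) in the high arrays and was 6-fold lower (-2.58 ± 0.11, adjusted p = 5.72e-08). Gjb6, a gap junction gene of grey matter astrocytes, was lower (-1.19 ± 0.11, adjusted p = 4.72e-06), whereas Slc1a2, the main glutamate transporter, was higher (0.83 ± 0.081, adjusted p = 5.98e-06). Aqp4 (0.045 ± 0.059, adjusted p = 0.578), Gja1 (0.021 ± 0.049, adjusted p = 0.763) and S100b (0.012 ± 0.058, adjusted p = 0.887) were not called. Microglial genes were lower in 2 of 12 (16.7%, against 27.4% over all genes), Laptm5 (-0.22 ± 0.076, adjusted p = 0.0299) and C1qa (-0.27 ± 0.094, adjusted p = 0.0306). In the other lines 8 of the 12 fell with the index (66.7%, against 24% over all genes).

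Vascular and blood genes were called in few members, and ependymal and choroid plexus genes in 5 of 10, against 27.4% lower over all genes. Among endothelial genes 1 of 10 was lower, Cldn5 of tight junctions (-0.15 ± 0.053, adjusted p = 0.0389), and without P 5 there were 0. Mural and meningeal genes included 3 of 13 that were lower, with Ptgds, of prostaglandin D synthase, by 0.90 ± 0.096 (adjusted p = 1.12e-05) and Lum, of the matrix protein lumican, by 1.25 ± 0.24 (adjusted p = 0.000895) on the log2 scale. The 5 called ependymal and choroid plexus genes were lower, led by Enpp2 (-1.13 ± 0.093, adjusted p = 1.92e-06), which oligodendrocytes also express, and Otx2 (-1.44 ± 0.18, adjusted p = 3.99e-05). Ttr, the most abundant choroid plexus transcript, was not called (-0.031 ± 0.31, adjusted p = 0.947). In the other lines 2 of these 10 genes fell with the index (20%, against 24% over all genes) and 1 rose. None of the 3 blood genes was called by limma, and none had an unadjusted p under 0.05.

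Synaptic vesicle genes had 7 of 26 higher (26.9%) and 9 lower (34.6%), shares near the 21.7% and 27.4% over all genes. Sv2a was lower (-1.05 ± 0.067, adjusted p = 4.1e-07) and its relative Sv2c, of the striatum, higher (1.14 ± 0.16, adjusted p = 0.000107). In the same way the complexin gene Cplx1 was lower (-0.59 ± 0.051, adjusted p = 2.6e-06) and Cplx2 higher (0.44 ± 0.098, adjusted p = 0.00263). Snap25, common to all synapses, was not called (-0.085 ± 0.046, adjusted p = 0.157). Genes of oxidative phosphorylation showed small shifts of 1 direction, 22 of 35 lower (62.9%) and 1 higher (2.86%), with a median of -0.19. In the other lines 22 fell with the index. Ndufa8, of complex I, had the largest (-0.58 ± 0.043, adjusted p = 9.83e-07), followed by Sdhc of complex II (-0.43 ± 0.039, adjusted p = 3.86e-06).

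The array P 5 was left out in turn, since it stood apart in the index. Without it the median of the spiny neuron list was 1.61 in place of 1.81 and that of the pallidal, septal and basal forebrain list -1.18 in place of -1.29. Oligodendrocyte genes were at -0.69 in place of -0.77. The counts of 18 of the 28 lists were the same without P 5, and those of the other 10 moved by 1 gene. Over all lists, 313 of 459 measured genes were called, and 272 of these were called with the same sign in the other lines and 0 with the opposite sign.

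**Figure D5:**
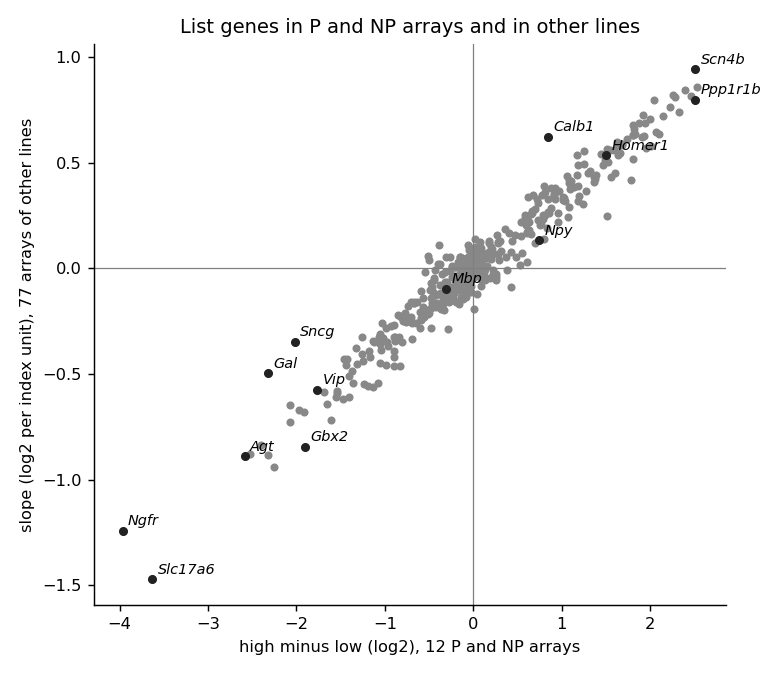
Each of the 459 list genes by its high minus low difference in P and NP (x axis, log2) and its slope on the index in 77 arrays of other lines (y axis, log2 per unit of index). Ngfr and Slc17a6 lie at the lower left, Scn4b and Ppp1r1b at the upper right, and no gene called in both had opposite signs.

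The 6 middle arrays, which were ranked but not compared, lay between the ends on average. Their index ran from 3.89 to 5.71. The mean of the middle arrays was between those of the low and high arrays for 11992 of the called probe sets (88.4%), and for 31% of those not called. Middle arrays were set by their index, and uncalled probe sets leave little gap between the ends. The contrast thus follows partly from how the sets were chosen and is no separate test. At the median called probe set it stood 67.0% of the way from low to high. All 30 named genes had a middle mean between the others, as had 301 of the 313 called list genes. Ppp1r1b ran from 12.06 to 13.80 (median 13.14) in the middle arrays, Slc17a6 from 6.25 to 9.68 (median 8.59) and Sema3c from 8.84 to 11.82 (median 10.22). NP 3, with the lowest index of the 6, had 12.06 for Ppp1r1b and 11.82 for Sema3c, near the low arrays in both.

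The step from low to high arrays was also compared between P and NP, with 3 arrays against 3 in each line. The difference between the lines in the high minus low step (the interaction) was called for 0 of 31029 probe sets (0%) by limma. At an unadjusted p under 0.05 there were 999, and 904 with a trended and robust variance. Both are a smaller share of the 31029 than the 0.05 that chance alone would give. With 3 arrays against 3 in each line, 0 calls do not show that the steps were equal. Crebl2, a relative of CREB, had the smallest adjusted p (0.75), with a step of -1.12 in P and -0.31 in NP. For Ngfr the step was -3.70 in P and -4.23 in NP, and for Ppp1r1b 3.05 and 1.97. The P steps of the spiny neuron genes include P 5.

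The comparison of P with NP itself depended on whether the index was in the fit. Over the 18 arrays, 661 probe sets (2.13%) differed between P and NP without the index and 1456 (4.69%) with it. The 1456 included all 661. Of the 1456, 711 (48.8%) were also called between high and low arrays, against 43.7% of all 31029 probe sets. Among the 30 named genes 0 were called between the lines by limma without the index and 3 with it. Strip2 was lower in P (-0.62, adjusted p = 0.00588), where the fit without the index gave -0.71 (adjusted p = 0.951). Eeig2 was lower in P too (-1.67, adjusted p = 0.0199), and Cbr3 was higher in P (0.66, adjusted p = 0.0447).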

How the data were processed

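Gene expression in 97 rat nucleus accumbens shell samples was measured on Affymetrix 3' expression arrays, 1 per animal. Per the labels' protocols, the RNA input was 25 ng, amplified in 2 cycles and labelled with biotin. The deposited values are log2 signals, which the authors summarised with RMA per the submitters' processing notes, with its version not stated in those notes. No further scaling was applied.

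Of 31099 probe sets, 57 AFFX controls and the 13 probe sets of the 8 index genes were left out, leaving 31029. Of the 31042 without AFFX controls, 20826 carry 1 gene symbol in the platform annotation, 436 several and 9780 none. Array titles gave line and animal number.

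Fits were made with lmFit and eBayes of limma 3.58.1 under R 4.3.3 (two-sided), with Benjamini-Hochberg adjustment over all 31042 probe sets without AFFX controls. Calls at an adjusted p under 0.05 were counted over the 31029 without the index genes. The step from low to high was fitted in 12 arrays with the line as covariate, the slope on the index in 77 arrays with the line as a factor. Errors are standard errors unless called SD. The scripts were tested on simulated data. Named genes are the 15 largest differences in each direction among calls with 1 symbol and no overlap between high and low arrays after each line was centred, without provisional symbols, together with up to 4 members of each list and of the interaction by adjusted p. The arrays, gene lists and rules were chosen with earlier results of these data known, and the study's labels do not define the high and low sets. Alternatives covered the index, its genes, the fit, single arrays and lines, and animal number as a block. Leaving P 5 out of the list counts was added after the data were seen.

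Animal numbers occur in both lines, but the labels do not call them pairs. Promoters are RefSeq's for GRCr8, matched by symbol for 11733 of 14217 genes.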

Additional observations from a re-analysis of the deposited data

Results flagged for a closer look

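Of 74 sets of values examined for an array far from the others of its set, 10 were flagged, and chance alone flags about 1 in 20 of such sets. P 5 was far below the other low arrays in the index (1.33) and in the log2 signals of Ppp1r1b (8.91), Gpr6 (6.47) and Rem2 (6.96), and far above them in Adcy8 (9.29) and Car10 (10.53). These 6 flags concern 1 array and are not independent of each other, since the genes follow the index. NP 10, which has the lowest index of the high arrays, lay far below the others in Scn4b (11.84) and Actn2 (9.71). The index of P 3 (5.97) lay above the other high arrays. The Gapdh 3' minus 5' value of NP 5 (0.0946) lay below those of the other low arrays.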

How the results depend on the processing

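The 13569 calls between high and low arrays became 8794 with P arrays alone and 8254 with NP arrays alone, 3 against 3, of which 8538 and 8033 were main calls with the same sign. Leaving out 1 array gave 12499 to 13821. Whether animal numbers pair the P and NP arrays was not settled. Correlations of deviations between arrays of the same number ran from -0.572 to 0.767, over 0.1 in 6 of 9. With the index fitted they ran from -0.349 to 0.365. A continuous index over 18 arrays gave 14232 calls and 8847 with the number as a replicate block, and the 12 arrays with the number as a random replicate block gave 13497. For P against NP with the index, the replicate block gave 1586 calls. The 1456 calls became 661 without the index, 762 with P 9 and NP 9 kept and 451 with the Gapdh value in place of the index. Leaving out 1 other line gave 9645 to 11343 slopes called, against 11117. The cause of these shifts was not tested, and some of the refits used fewer arrays. All other indices, covariates, filters and variance settings gave counts within 1.5 times. For single genes the alternatives were the continuous index, the random replicate block, the Gapdh covariate and subtracted array medians. The trended and robust variance and the omission of each of the 12 arrays completed them. The other settings were not checked gene by gene. Of 8262 such values of 486 text genes, 8039 kept their side of the threshold, 154 were no longer called and 69 were newly called. Of the values called in either fit 0 reversed direction, and sign changes of uncalled values were not counted. In at least 1 alternative 32 genes lost a call. Other indices kept at least 5 of the 6 high and 5 of the 6 low arrays. Signal over background was not used here.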
